A study of Homo sapiens with 12 samples.

Results

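Matrix metalloproteinases (MMPs) and their tissue inhibitors (TIMPs) were examined in 3 established prostate cell lines. The 10 genes were 7 MMPs (MMP1, MMP2, MMP7, MMP9, MMP10, MMP13 and MMP14) and 3 TIMPs (TIMP1, TIMP2 and TIMP3). They were found by gene name among the 58302 genes of the deposited expression table, and each name matched 1 row. The paper describes RNA sequencing of BPH-1 and PC3, used to look for voltage-gated chloride channel genes that differed, and the deposited data also hold DU145. The deposited libraries fall into 3 groups of 4, with 4 libraries of BPH-1, a benign prostate cell line, 4 of DU145 and 4 of PC3, which are both PCa lines. Every library is labelled with the genotype WT, and no treatment is given. All of the lines were grown in the same way, in Dulbecco's modified Eagle's medium with fetal bovine serum, penicillin and streptomycin, and total RNA was extracted. An established line stands for 1 source of cells, and nothing says that the 4 libraries of a line came from separate cultures, so p-values measure only the spread between these libraries, which may be technical. In bulk RNA, fewer cells that express a gene and less of its RNA per cell cannot be told apart.

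MMPs are zinc-dependent endopeptidases that cut collagens, laminins, fibronectin and other proteins of the extracellular matrix, and most of them are secreted as inactive proenzymes that lose a propeptide on activation. TIMPs block MMPs by binding in the active site, and TIMP2 also links the proenzyme of MMP2 to MMP14 on the cell surface, where MMP2 is activated. In the prostate, epithelial and stromal cells both make members of these families, which have long been studied for their part in matrix turnover and invasion.

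Levels are given as FPKM, the number of reads on a gene divided by its length and by the depth of the library. Depth ranged from 12950665 to 16309559 reads over the 12 libraries, so that a gene with 0 reads in 4 libraries could still have had a mean level of up to 0.00514 to 0.0311 FPKM among these genes, depending on length and line (3 reads over the group, counting error only). KRT8 and KRT18, keratins of simple epithelia, were read in all lines, and the summed FPKM of 8 epithelial markers was 435 to 603 in BPH-1, 245 to 419 in DU145 and 286 to 414 in PC3. Different keratins made up these sums. The basal keratins KRT5 and KRT14 were at 147 ± 29.6 and 203 ± 37.8 FPKM in BPH-1 (SD, n = 4) and under 0.5 FPKM in all libraries of the PCa lines. KRT7 was highest in DU145 (218 ± 48.8 FPKM) and KRT19 in PC3 (232 ± 58.9 FPKM). EPCAM and CDH1, which encode epithelial adhesion proteins, were at 60.8 ± 2.28 and 28.4 ± 12.2 FPKM in BPH-1, at 9.10 ± 1.81 and 0.786 ± 0.44 FPKM in PC3, and at 0.376 ± 0.168 and 0.18 ± 0.0936 FPKM in DU145 (SD, n = 4). KLK3, which encodes prostate-specific antigen, had no read in any library. DU145 replicates 1 and 2 stood apart from replicates 3 and 4 in genes of other cell types and in genes that were high in BPH-1. LYZ, which encodes lysozyme, was at 7.76 and 8.63 FPKM in replicates 1 and 2 and had no read in replicates 3 and 4, where BPH-1 had 7.61 to 10.1 FPKM. PTPRC, the leukocyte antigen CD45, followed with 1.35 and 1.25 FPKM against 0 in both others. DCN, which encodes the stromal proteoglycan decorin, went the other way with 0, 0, 0.373 and 0.214 FPKM in replicates 1 to 4. KRT5 had 45, 66, 3 and 0 reads in DU145 replicates 1 to 4, KRT14 had 13, 21, 1 and 0, and the cytokine gene IL1A had 15, 18, 0 and 0, and each of these genes had at least 2142 reads in every BPH-1 library. The part of this split in the few DU145 reads of MMPs that were high in BPH-1 was not tested. The lines were also compared over replicates 1 and 2 only and over replicates 3 and 4 only, a split chosen after these values were seen, and the calls of members that changed are given beside the values they concern.

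Against BPH-1, most MMPs were lower in both PCa lines, while TIMP2 was higher in both and TIMP1 was higher in PC3. In PC3, 8 of the 9 members tested differed from BPH-1 at an adjusted p under 0.05 in limma's test across all genes, 6 of them lower and 2 higher. That call was common in this comparison, since it was made for 67.6% of the 16345 genes tested, 40.5% lower and 27.2% higher. In DU145, 8 of the 9 members tested differed from BPH-1, 7 lower and 1 higher, where 62.6% of 17070 genes did, 32.3% lower and 30.3% higher. Between PC3 and DU145, 4 of the 5 members tested differed, all of them higher in PC3, where 48.2% of 16210 genes did and 20.0% were higher in PC3. Libraries of the lines did not overlap for 8 of the 9 members tested in PC3 against BPH-1 (64.5% of all genes tested), for 8 of 9 in DU145 against BPH-1 (59.4%) and for 4 of 5 in PC3 against DU145 (46.5%). A filter on low values let some members in through their level in 1 line alone, which favours a difference, so that their calls are no support. These were MMP2, MMP9, MMP10 and TIMP3 in PC3 against BPH-1, the same 4 with MMP1 and MMP13 in DU145 against BPH-1, and MMP1 and MMP13 in PC3 against DU145. Among the other members tested, MMP1 and MMP13 were called lower and TIMP1 and TIMP2 higher in PC3 against BPH-1. In DU145 against BPH-1 only MMP14 was then called lower and TIMP2 higher, and between the PCa lines MMP14 and TIMP1 were called higher in PC3. Both comparisons with BPH-1 use the same 4 BPH-1 libraries.

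**Figure D1:**
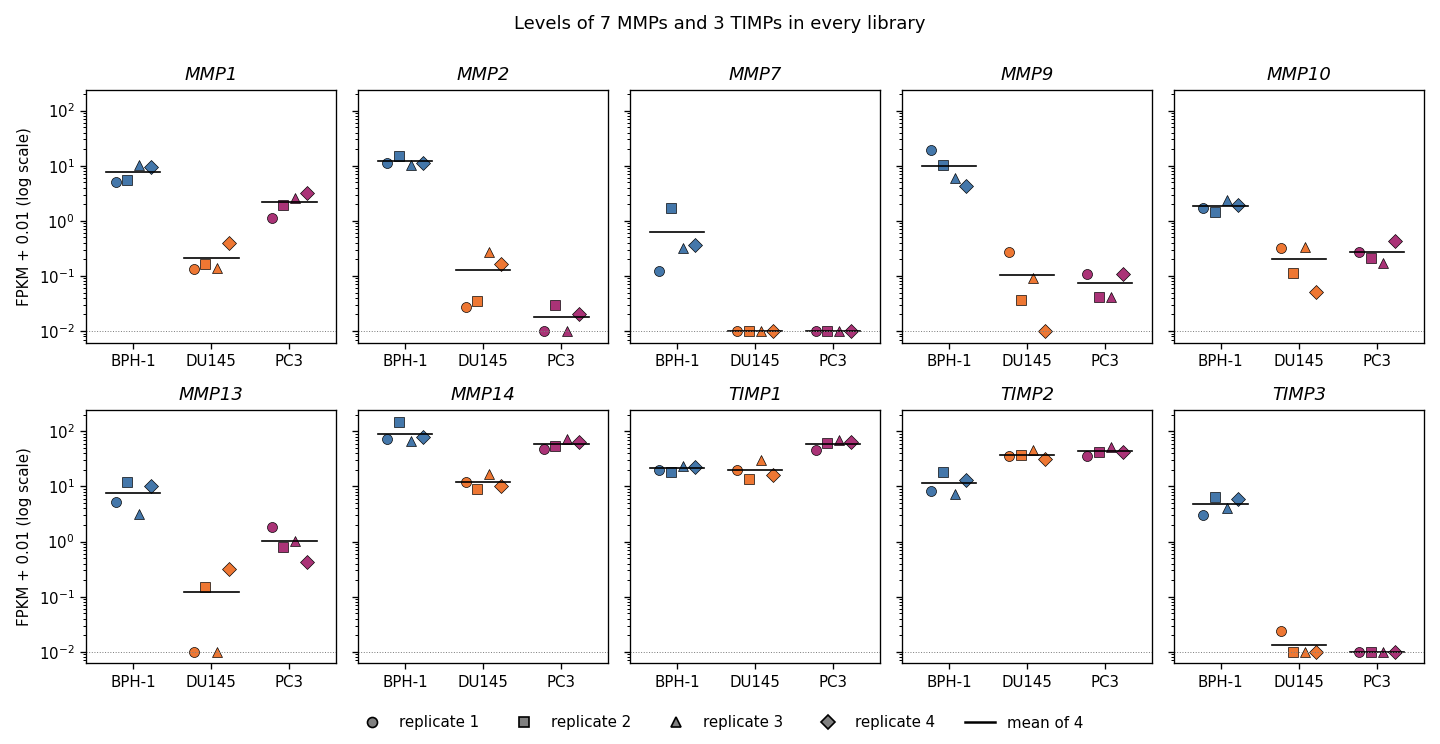
FPKM of each of the 10 genes in each of the 12 libraries, with 0.01 added so that a value of 0 sits on the dotted line; the vertical axis is logarithmic, marker shapes stand for replicates and black lines for the mean of 4. In BPH-1 every gene lies above the dotted line in all 4 libraries, whereas MMP7 lies on it in all libraries of DU145 and PC3, and MMP14, TIMP1 and TIMP2 are the highest genes in all 3 lines except for TIMP2 in BPH-1.

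**Figure D2:**
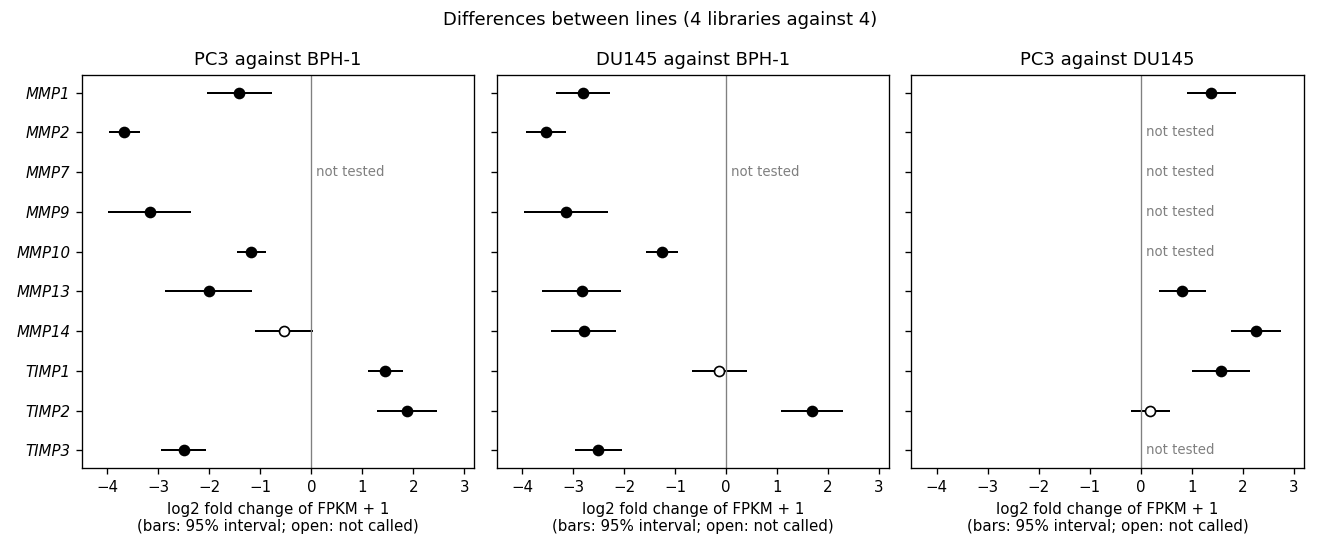
Log2 fold change of FPKM + 1 (horizontal axis) for each gene in 3 comparisons of 4 libraries against 4, with 95% confidence intervals from limma; filled circles are called at an adjusted p under 0.05 and open circles are not. The MMPs tested lie to the left of 0 in the comparisons with BPH-1, TIMP2 lies to the right in both, and all filled circles lie to the right of 0 in PC3 against DU145.

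The interstitial collagenases MMP1 and MMP13, which cut fibrillar collagens, were highest in BPH-1, lower in PC3 and lowest in DU145. MMP1 (ENSG00000196611) lies on the minus strand of chromosome 11 at chr11:102789920-102798160 in GRCh38. In replicates 1 to 4, its FPKM was 5.0, 5.59, 10.4 and 9.56 in BPH-1. It was 1.10, 1.93, 2.63 and 3.21 in PC3, and 0.125, 0.156, 0.132 and 0.378 in DU145, where 23 reads were counted in all. The 3 lines did not overlap, and within BPH-1 replicates 3 and 4 were above replicates 1 and 2. MMP1 was 3.44-fold lower in PC3 than in BPH-1 (means of 2.22 ± 0.914 and 7.64 ± 2.74 FPKM, SD, n = 4), with a log2 fold change of FPKM + 1 of -1.42 (SE 0.27, limma adjusted p = 0.0013). That log2 fold change was -1.02 (limma adjusted p = 0.0159) with the trend of values against the GC content of genes divided out. With upper-quartile scaling it was -1.08 (limma adjusted p = 0.00753). In DU145 MMP1 was 38.6-fold lower than in BPH-1, with a log2 fold change of -2.80 (SE 0.23, limma adjusted p = 5.97e-06). PC3 exceeded DU145 by 11.2-fold in MMP1, with a log2 fold change of 1.38 (SE 0.20, limma adjusted p = 0.000476). The 2 calls that involve DU145 are no support, since MMP1 passed the filter there through the other line alone.

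MMP13 (ENSG00000137745) lies on the same strand at chr11:102942995-102955734. Its FPKM in replicates 1 to 4 was 5.16, 12.2, 3.10 and 10.4 in BPH-1. In PC3 it was 1.85, 0.779, 1.0 and 0.424, and in DU145 it was 0, 0.139, 0 and 0.313, with 20 reads in all from 2 libraries. Every BPH-1 library lay above every PC3 library, and every PC3 library above every DU145 library, although the lowest PC3 value and the highest DU145 value were close. MMP13 was 7.62-fold lower in PC3 than in BPH-1 (log2 fold change -2.01, SE 0.37, limma adjusted p = 0.000955). With the trend of values against the GC content of genes divided out, it was -1.25 (adjusted p = 0.00951). It was 68.3-fold lower in DU145 than in BPH-1 (log2 fold change -2.83, SE 0.34, limma adjusted p = 6.31e-05). That log2 fold change was -2.22 (limma adjusted p = 0.00034) with the GC trend divided out. The difference of 8.96-fold between PC3 and DU145 was smaller on the log2(FPKM + 1) scale, at 0.82 (SE 0.19, limma adjusted p = 0.00696). Without DU145 replicate 4 the ratios rose from 68.3 to 167 and from 8.96 to 21.9. The 2 calls that involve DU145 are no support, since MMP13 passed the filter there through the other line alone. The difference between PC3 and DU145 was not called over replicates 3 and 4 only (0.56, adjusted p = 0.162) or in 1 fit over all 3 lines (0.82, adjusted p = 0.0545).

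The gelatinases MMP2 and MMP9, which cut denatured collagen and the collagen IV of basement membranes, were at several FPKM or more in BPH-1 and under 0.3 FPKM in all libraries of the PCa lines. MMP2 (ENSG00000087245) lies on the plus strand at chr16:55389700-55506691. It was at 11.1, 14.8, 10.4 and 11.4 FPKM in BPH-1 replicates 1 to 4, the narrowest spread among the MMPs in that line (highest over lowest 1.42). DU145 had 0.017, 0.0253, 0.267 and 0.154 FPKM, and PC3 had 0, 0.0201, 0 and 0.0106 FPKM, which were 3 reads in all. In DU145 replicates 3 and 4, the libraries in which DCN was read, held 45 of the 50 reads. MMP2 was 103-fold lower in DU145 than in BPH-1 (log2 fold change -3.53, SE 0.16, limma adjusted p = 2.56e-07). Relative to depth, the 5362 reads of BPH-1 were 1547 times the 3 reads of PC3, with a 95% counting interval of 529 to 7502 (log2 fold change -3.67, SE 0.13, limma adjusted p = 3.59e-08). In both comparisons MMP2 passed the filter through BPH-1 alone, so these calls are no support. Without DU145 replicate 3 the ratio of means for DU145 was 183, and without PC3 replicate 2 that for PC3 rose from 1557 to 3374. Over replicates 1 and 2 only and replicates 3 and 4 only the log2 fold change of MMP2 in DU145 was -3.76 and -3.30. PC3 and DU145 overlapped in MMP2, which was not tested between them by limma (two-sided exact permutation p = 0.0571).

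MMP9 (ENSG00000100985) lies on the plus strand at chr20:46008908-46016561. The 4 BPH-1 libraries spread widely, at 19.2, 10.5, 5.98 and 4.25 FPKM in replicates 1 to 4. DU145 had 0.264, 0.0262, 0.0832 and 0 FPKM (14 reads in all), and PC3 had 0.0992, 0.0312, 0.0308 and 0.0991 FPKM (8 reads). The lowest BPH-1 library was above all libraries of the PCa lines, which overlapped each other (two-sided exact permutation p = 0.886). MMP9 was 107-fold lower in DU145 (log2 fold change -3.14, SE 0.36, limma adjusted p = 4.91e-05) and 153-fold lower in PC3 (-3.17, SE 0.35, adjusted p = 4.19e-05) than in BPH-1. Since MMP9 passed the filter through BPH-1 alone in both comparisons, these calls are no support. Without DU145 replicate 1, which held 10 of the 14 reads, the ratio for DU145 was 273. Over replicates 1 and 2 only and replicates 3 and 4 only the log2 fold change of MMP9 was -3.74 and -2.54 in DU145 and -3.84 and -2.51 in PC3, where BPH-1 replicates 1 and 2 were the higher ones.

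MMP10, or stromelysin-2, cuts many matrix proteins and activates other MMPs, and MMP7, or matrilysin, is a short MMP made by glandular epithelia. MMP10 (ENSG00000166670; minus strand, chr11:102770503-102780628) ranged from 1.41 to 2.43 FPKM in BPH-1, from 0.0413 to 0.323 in DU145 (22 reads) and from 0.16 to 0.427 in PC3 (25 reads). BPH-1 lay above both PCa lines, which overlapped each other (two-sided exact permutation p = 0.514). MMP10 was 9.67-fold lower in DU145 (log2 fold change -1.26, SE 0.13, limma adjusted p = 2.78e-05) and 7.15-fold lower in PC3 (-1.18, SE 0.12, adjusted p = 2.12e-05) than in BPH-1. Both calls are no support, since MMP10 passed the filter through BPH-1 alone. MMP7 (ENSG00000137673; minus strand, chr11:102520508-102530753) was at 0.111, 1.71, 0.309 and 0.352 FPKM in BPH-1 replicates 1 to 4, from 5, 76, 14 and 16 reads. No read of MMP7 was counted in any library of DU145 or PC3, and it passed the filter in no comparison. Against the limit of 3 reads over a line, its mean of 0.62 ± 0.733 FPKM in BPH-1 (SD, n = 4) was at least 37.0-fold higher than in DU145 and at least 32.2-fold higher than in PC3. The mean in BPH-1 rests on replicate 2, which held 76 of its 111 reads, and is 0.258 FPKM without it. The two-sided exact permutation test gave p = 0.0286 for MMP7 between BPH-1 and either PCa line, the smallest that 4 libraries against 4 can give. Any gene read in every library of 1 line and in none of the other gives this value, so it is no support.

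Among the members, MMP7, MMP10 and TIMP3 were read far more in BPH-1 than in the PCa lines, and their upstream sequences in RefSeq (GRCh38.p14) are shown because they are built differently. A RefSeq promoter was found for 5 of the 10 genes. The 250 bases before each start are printed 5′ to 3′ on the strand of the gene, with matches to the AP-1 motif TGAGTCA on either strand in capitals. Matches to the TATA box, searched as TATAAA on either strand, and to the GC box, searched as GGGCGG on either strand, are in capitals as well.
MMP7, chr11:102530748-102530997, minus strand: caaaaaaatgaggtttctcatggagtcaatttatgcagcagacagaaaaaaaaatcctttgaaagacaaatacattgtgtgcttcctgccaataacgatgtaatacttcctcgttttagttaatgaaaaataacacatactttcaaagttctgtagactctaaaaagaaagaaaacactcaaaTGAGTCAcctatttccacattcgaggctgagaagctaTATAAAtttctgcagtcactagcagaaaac
MMP10, chr11:102780629-102780878, minus strand: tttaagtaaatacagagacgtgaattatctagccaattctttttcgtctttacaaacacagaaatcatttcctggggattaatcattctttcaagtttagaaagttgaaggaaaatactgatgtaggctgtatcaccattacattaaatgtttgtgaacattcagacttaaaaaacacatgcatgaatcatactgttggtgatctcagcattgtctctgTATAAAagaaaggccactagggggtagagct
TIMP3, chr22:32801455-32801704, plus strand: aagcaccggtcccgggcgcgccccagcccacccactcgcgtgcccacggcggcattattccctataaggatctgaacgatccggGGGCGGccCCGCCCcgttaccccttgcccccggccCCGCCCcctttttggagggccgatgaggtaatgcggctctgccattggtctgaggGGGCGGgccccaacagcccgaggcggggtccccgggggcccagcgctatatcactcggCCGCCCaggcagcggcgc
In the MMP7 window, the AP-1 letters begin 67 bases and the TATA letters 30 bases before the start, and that of MMP10 has the TATA letters at 31 bases and no match to the others. The TIMP3 window holds 5 GC boxes, 26 CpG dinucleotides and neither an AP-1 nor a TATA match. GC content was 33.6% for MMP7, 34.4% for MMP10 and 72.4% for TIMP3, where the median over 35116 promoter windows of this length was 58%. The windows of MMP14 (56.8% GC, 1 GC box) and TIMP1 (64.8% GC, 2 GC boxes), which are not printed, also held no AP-1 or TATA match. The core of the PEA3 motif of ETS factors, searched as AGGAAG on either strand, occurred in the windows of MMP7 and TIMP1. Over all windows, the AP-1 letters were found in 4.2%, the PEA3 core in 28.7%, the GC box in 42.6% and the TATA box in 10.7%. A match describes the sequence, and no binding was measured.

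MMP14, the membrane-type MMP that cuts collagen at the cell surface and activates MMP2, was the highest of the 7 MMPs in all 3 lines. MMP14 (ENSG00000157227) lies on the plus strand at chr14:22836557-22849027. In replicates 1 to 4 it was at 72.5, 148, 65.7 and 78.7 FPKM in BPH-1. PC3 had 48.8, 55.3, 73.4 and 63.1 FPKM, and DU145 had 11.9, 8.93, 16.8 and 10.1 FPKM. DU145 was below both other lines, while PC3 replicate 3 was above BPH-1 replicates 1 and 3, so these lines overlapped. MMP14 was 7.65-fold lower in DU145 than in BPH-1 (means of 11.9 ± 3.47 and 91.3 ± 38.4 FPKM, SD, n = 4), with a log2 fold change of -2.79 (SE 0.28, limma adjusted p = 2.03e-05). It was 5.04-fold higher in PC3 (60.1 ± 10.6 FPKM, SD, n = 4) than in DU145, with a log2 fold change of 2.26 (SE 0.21, limma adjusted p = 2.58e-05). The difference between PC3 and BPH-1 was not called (-0.53, 95% interval -1.08 to 0.02, adjusted p = 0.0814), and an effect of 0 to about a log2 unit lower lies within its interval. That result moved with the scaling and with the libraries used. It was called lower after rescaling to equal sums (-0.80, adjusted p = 0.0154), after dividing out the GC trend (-1.07, adjusted p = 0.0025) and without BPH-1 replicate 3 (-0.66, adjusted p = 0.0497). It shrank to -0.27 (adjusted p = 0.142) without BPH-1 replicate 2, to -0.12 (adjusted p = 0.679) with upper-quartile scaling and to -0.08 (adjusted p = 0.729) over replicates 3 and 4 only, whereas over replicates 1 and 2 only it was -0.98 (adjusted p = 0.0757).

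The inhibitors did not move together. TIMP1 (ENSG00000102265; plus strand, chrX:47582313-47586789), a secreted inhibitor of most soluble MMPs, was at 19.7, 18.4, 23.9 and 22.9 FPKM in BPH-1 replicates 1 to 4. It was at 20.3, 13.6, 30.5 and 16.0 FPKM in DU145 and at 46.2, 60.6, 69.5 and 63.7 FPKM in PC3. PC3 lay above both other lines, and DU145 replicates fell on both sides of the BPH-1 values. TIMP1 was 2.83-fold higher in PC3 than in BPH-1 (log2 fold change 1.45, SE 0.14, limma adjusted p = 2.07e-05) and 2.99-fold higher in PC3 than in DU145 (1.58, SE 0.24, adjusted p = 0.000601). With the GC trend divided out, the difference from BPH-1 was 0.95 (adjusted p = 0.00025). Over replicates 3 and 4 only, the difference from DU145 had a like size and was not called (1.55, adjusted p = 0.0543). DU145 and BPH-1 were not found to differ in TIMP1 (-0.13, 95% interval -0.66 to 0.39, limma adjusted p = 0.644), and the sign turned to 0.16 with upper-quartile scaling and to 0.02 without DU145 replicate 2. After the GC trend was divided out, the same difference was called (-0.66, limma adjusted p = 0.00154).

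TIMP2 (ENSG00000035862; minus strand, chr17:78852977-78925387), the inhibitor that also takes part in MMP2 activation by MMP14, was the member that was higher in both PCa lines. It was at 8.12, 18.2, 7.36 and 13.0 FPKM in BPH-1 replicates 1 to 4. DU145 had 36.2, 37.0, 46.0 and 31.8 FPKM, and PC3 had 35.5, 43.1, 52.4 and 42.3 FPKM. No BPH-1 library reached the range of the PCa lines, whose own ranges overlapped. TIMP2 was 3.23-fold higher in DU145 (log2 fold change 1.68, SE 0.27, limma adjusted p = 0.000375) and 3.71-fold higher in PC3 (1.87, SE 0.26, adjusted p = 0.000145) than in BPH-1. PC3 and DU145 were not found to differ in TIMP2 (0.19, 95% interval -0.18 to 0.56, limma adjusted p = 0.365).

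TIMP3 (ENSG00000100234; plus strand, chr22:32801701-32863043), an inhibitor that stays bound to the matrix and also blocks ADAM proteases, was at 3.02, 6.53, 4.02 and 5.85 FPKM in BPH-1 replicates 1 to 4. In DU145 a lone read was counted, in replicate 1, and in PC3 there was none. BPH-1 held 1380 reads, and its mean of 4.85 ± 1.62 FPKM (SD, n = 4) was at least 398-fold higher than in PC3, against the limit of 3 reads over the line (log2 fold change of PC3 against BPH-1 -2.51, SE 0.19, limma adjusted p = 3.2e-06). Relative to depth, the reads of BPH-1 were 1370 times those of DU145, with a 95% counting interval of 245 to 54148 (log2 fold change of DU145 against BPH-1 -2.50, SE 0.19, limma adjusted p = 4.36e-06). Both calls are no support, since TIMP3 passed the filter through BPH-1 alone. SYN3, which covers the whole of TIMP3 on the other strand, was listed at 0 in BPH-1 and DU145 and at 0.00748 FPKM in PC3. Of the genes that overlap other members, the highest was an antisense RNA of TIMP2 at 0.7 FPKM in PC3. Some were not low beside members with few reads. SLC12A5-AS1, antisense to MMP9, was at 0.371 FPKM in DU145 and 0.0918 in PC3, where MMP9 was at 0.0934 and 0.0651. WTAPP1, on the other strand of MMP1 and MMP10, was at 0.101 FPKM in DU145, where these were at 0.198 and 0.193. Use of strand in counting is not stated, and the part of these genes in the reads of members was not tested.

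The order of levels within a line differed between lines. In BPH-1, MMP14 was highest, followed by TIMP1 at 21.2 ± 2.6 FPKM, and neither overlapped with the gene below it. MMP2, TIMP2, MMP9, MMP13, MMP1 and TIMP3 came next, from 11.9 to 4.85 FPKM, each overlapping with its neighbour, and MMP10 and MMP7 were lowest. In DU145, TIMP2 led at 37.8 ± 5.97 FPKM, above TIMP1 at 20.1 ± 7.44 and MMP14 at 11.9 ± 3.47, which overlapped, while the other 7 members had means under 0.2 FPKM. In PC3, MMP14 and TIMP1 were close at 60.1 ± 10.6 and 60.02 ± 9.92 FPKM, overlapping with TIMP2 at 43.3 ± 6.94, and MMP1 followed at 2.22 ± 0.914 FPKM. These ranks depend on the length by which the authors divided, the sum of all distinct exons, which exceeds the merged exon length by 1.68 times for TIMP2, 1.47 times for TIMP1 and MMP2 and 1.35 times for MMP14. With merged lengths TIMP1 came above MMP14 in PC3 (88.1 and 81.1 FPKM), and TIMP2 above MMP2 in BPH-1 (19.6 and 17.6 FPKM).

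Summed over the members, MMPs outweighed TIMPs in BPH-1, and TIMPs outweighed MMPs in the PCa lines. The summed FPKM of the 7 MMPs was 98.3 to 195 in BPH-1, 9.38 to 17.6 in DU145 and 52.1 to 77.2 in PC3. That of the 3 TIMPs was 30.8 to 43.1 in BPH-1, 47.8 to 76.5 in DU145 and 81.7 to 122 in PC3. Over these members, the TIMP sum divided by the MMP sum was thus 0.222 to 0.359 in BPH-1. It was 4.34 to 5.40 in DU145 and 1.57 to 1.78 in PC3, with no overlap between lines. The 16 other MMPs summed to 7.37 to 12.02 FPKM in BPH-1, 17.02 to 27.2 in DU145 and 9.43 to 11.6 in PC3. Counting them would lower the ratio most in DU145, and its value over all MMPs was not computed. MMP14 alone made up 63.2% to 76.2% of the sum of the 7 MMPs in BPH-1, 91.9% to 95.4% in DU145 and 93.7% to 95.04% in PC3. Its share of all MMPs would be far lower in DU145, where MMP24, outside the members, was at 14.5 ± 2.58 FPKM and MMP14 at 11.9 ± 3.47. Without MMP14, the other MMPs among the members summed to 39.8 ± 5.85 FPKM in BPH-1, 0.713 ± 0.191 in DU145 and 3.57 ± 0.542 in PC3 (SD, n = 4). The ratio of TIMP2 to MMP14 was 0.112 to 0.165 in BPH-1, 2.74 to 4.14 in DU145 and 0.67 to 0.779 in PC3. Like the ranks, this ratio and the sums depend on the exon lengths used. With merged lengths, the means of TIMP2 and MMP14 in PC3 were closer, at 72.6 and 81.1 FPKM. TIMP3 contributed 9.78% to 15.1% of the TIMP sum in BPH-1 and at most 0.0237% in the PCa lines. These are ratios of RNA levels on the FPKM scale and say nothing of protein.

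**Figure D3:**
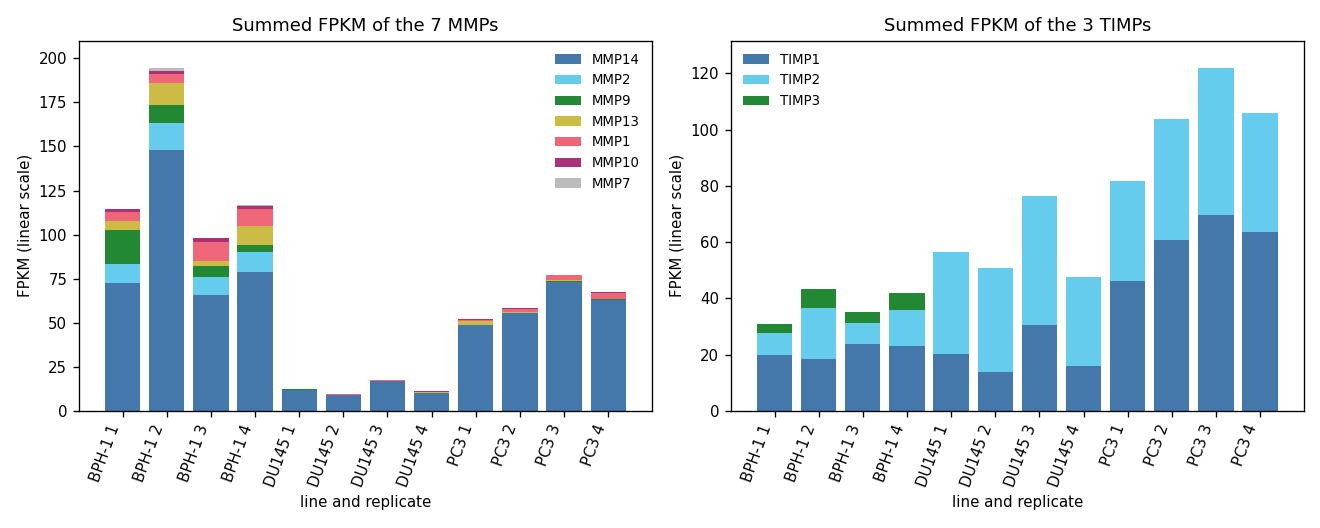
Stacked bars of FPKM on a linear scale from 0 in each of the 12 libraries, for the 7 MMPs on the left and the 3 TIMPs on the right (vertical scales differ). MMP14 fills most of every bar on the left, the other MMPs are visible mainly in BPH-1, and TIMP3 appears in the BPH-1 bars.

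MMP1, MMP7, MMP10 and MMP13 belong to a cluster of 9 MMP genes within 435 kb at chr11:102520508-102955734. Of the 5 cluster genes outside the members, MMP20, MMP27 and MMP8 had no read in any library. MMP12, the macrophage elastase, was at 0.588 to 2.24 FPKM in BPH-1 (159 reads) and had no read in DU145 or PC3. It passed the filter through BPH-1 alone, and its call is no support. MMP3, or stromelysin-1, was at 0.264, 0.148, 1.83 and 2.08 FPKM in BPH-1 replicates 1 to 4 and at 0, 0, 1.2 and 0.707 FPKM in DU145, while PC3 had 1 read in all. In both lines replicates 3 and 4 were the high ones for MMP3, as for MMP1 in BPH-1 and MMP2 in DU145. The cluster genes that were read at all therefore had their highest mean in BPH-1, although DU145 and BPH-1 overlapped in MMP3 and were not found to differ (-0.44, limma adjusted p = 0.327). Among the 6 other protein-coding genes lying wholly within 500 kb of the cluster, YAP1, BIRC3, BIRC2 and TMEM123 were lower in PC3 than in BPH-1. Their log2 fold changes ran from -1.31 to -2.14, and all were called, where 40.5% of all genes tested were called lower. CFAP300, on the same side of the cluster, and DCUN1D5, on the far side, were not found to differ (0.05 and -0.04, limma adjusted p = 0.617 and 0.84). In DU145, BIRC3, BIRC2 and TMEM123 were lower, CFAP300 had 15 reads where BPH-1 had 83, YAP1 was not called (-0.82, adjusted p = 0.0739) and DCUN1D5 was higher (0.72, adjusted p = 0.00595) than in BPH-1. Of all genes tested in DU145 against BPH-1, 32.3% were called lower and 30.3% higher.

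**Figure D4:**
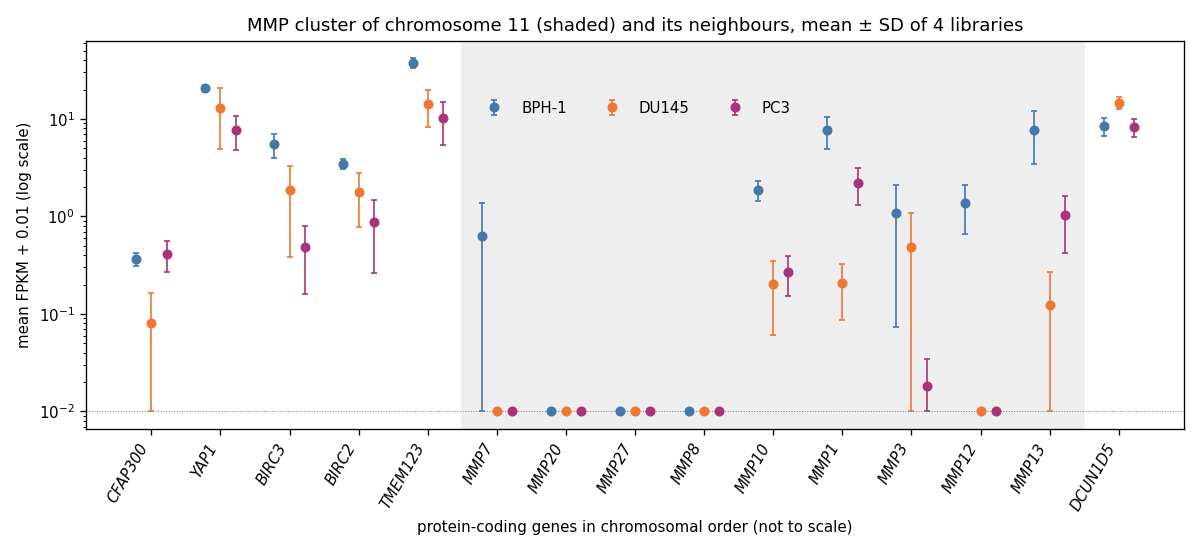
Mean FPKM (± SD of 4 libraries, 0.01 added, logarithmic axis) of the 15 protein-coding genes in and wholly within 500 kb of the chromosome 11 MMP cluster, in chromosomal order and not to scale; where the SD exceeds the mean, the bar stops at the dotted line for 0. Inside the shaded cluster the BPH-1 means are the highest for every gene that was read, and DU145 points of MMP1 and MMP13 lie below those of PC3.

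For members that passed the filter over all lines, the gene with the most similar log2(FPKM + 1) over the 12 libraries was found among genes with a mean of at least 100 reads. The correlations are descriptive, since the libraries share 3 lines and many genes separate them. MMP2 came closest to MARVELD3 (Pearson r = 0.999), TIMP3 to GABRE (0.998), MMP9 to KCNJ15 (0.994) and TIMP2 to ASAP3 (0.99). MMP13 followed PDZD2 (0.987), and MMP1, MMP14 and TIMP1 followed MLLT11, DCAF11 and CDC42EP4 (each 0.981). MLLT11 had means of 8.28, 1.01 and 2.83 FPKM in BPH-1, DU145 and PC3, the order that MMP1 had.

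Other genes of the MMP system differed between the lines in both directions. Their counts stand beside a share over all genes of 27.2% higher and 40.5% lower in PC3, and of 30.3% higher and 32.3% lower in DU145, against BPH-1. Some listed genes passed the filter through 1 line alone, which favours a difference, and their number is given with each list. Of 16 other MMPs, 8 were tested in PC3 against BPH-1 (3 higher, 2 lower, median log2 fold change -0.04, where the median over all genes tested was -0.13), and 10 in DU145 against BPH-1 (3 higher, 4 lower, median -0.21, all genes -0.03). Both lower genes in PC3 and all 4 in DU145, MMP12 among them, passed the filter through BPH-1 alone. Without the genes past the filter in 1 line, none of 5 was lower in PC3 (3 higher, median 0.27) and none of 4 in DU145 (2 higher, median 0.45). MMP24, a membrane-type MMP, stood at 16.0, 12.2, 17.4 and 12.4 FPKM in DU145 replicates 1 to 4, above MMP14 in each of these libraries on the deposited scale. It was at 0.16 to 0.312 FPKM in BPH-1 and 0.297 to 0.665 in PC3. It was higher in DU145 than in BPH-1 by a log2 fold change of 3.66 (SE 0.16, limma adjusted p = 2.14e-07). MMP17, another membrane-type MMP, was at 0.71 ± 0.0937 FPKM in BPH-1, 2.20 ± 0.662 in DU145 and 4.30 ± 0.664 in PC3, and MMP16 at 0.365 ± 0.0607, 0.0012 ± 0.00241 and 0.88 ± 0.298 FPKM. Of 6 other inhibitors, 4 were tested (1 higher and 1 lower in PC3, 2 lower in DU145 against BPH-1, median -0.19 and -0.44), and 1 of the lower ones in DU145, TIMP4, passed the filter through BPH-1 alone. Among these SPOCK1, which encodes the matrix proteoglycan testican-1, was at 16.97 ± 1.54 FPKM in BPH-1, 0.206 ± 0.0927 in DU145 and 1.94 ± 0.742 in PC3.

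Activators and surface partners of MMPs were mixed, with 5 of 14 tested genes higher and 7 lower in PC3 (median -0.43), and 3 higher and 6 lower in DU145 (median -0.20), against BPH-1. In PC3, 2 of the lower genes, PCSK5 and PCSK6, passed the filter through BPH-1 alone. Without these 2 the counts were 5 higher and 5 lower of 12, and the sign of the median turned (0.17). PLAT, the tissue plasminogen activator, was at 32.3 ± 5.29 FPKM in PC3, where BPH-1 had 1.63 ± 0.439 and DU145 0.77 ± 0.121. PCSK5, a proprotein convertase, was at 0.827 ± 0.265 FPKM in BPH-1 and 0.126 ± 0.034 in DU145 and had no read in PC3. Of 10 ADAM and ADAMTS proteases tested, 4 were higher and 6 lower in PC3 (median -0.55), and 1 was higher and 8 lower in DU145 (median -1.53). Of the lower ones, ADAM28 and ADAMTS12 in both PCa lines and ADAMTS1 in DU145 passed the filter through BPH-1 alone. Without them the counts were 4 higher and 4 lower of 8 in PC3 (median 0.50), and 1 higher and 5 lower of 7 in DU145 (median -1.49). ADAM19, ADAMTS1 and ADAM8 were highest in PC3 (27.9 ± 3.21, 26.2 ± 8.94 and 16.0 ± 4.94 FPKM) and lowest in DU145 (0.82 ± 0.441, 0.111 ± 0.0745 and 0.663 ± 0.191 FPKM). ADAM15 was at 6.37 ± 1.28 FPKM in BPH-1, 14.8 ± 3.4 in DU145 and 21.4 ± 1.0 in PC3.

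Matrix substrates of MMPs were lower for 13 of 18 tested genes in PC3 (3 higher, median -1.31) and for 12 of 18 in DU145 (5 higher, median -0.74) against BPH-1, where 40.5% and 32.3% of all genes tested were lower. Of these genes VCAN alone passed the filter through BPH-1 only. COL17A1, a collagen of hemidesmosomes, was at 95.7 ± 6.47 FPKM in BPH-1, 2.83 ± 0.867 in DU145 and 0.276 ± 0.0899 in PC3. LAMB3 and COL4A2, a laminin chain and a chain of collagen IV, were highest in DU145 (294 ± 84.8 and 111 ± 28.3 FPKM) and lowest in PC3 (44.0 ± 20.9 and 16.8 ± 1.62 FPKM). Inducers and transcription factors known from MMP promoters gave 5 higher and 8 lower of 21 in PC3 (median -0.19) and 6 higher and 5 lower of 21 in DU145 (median 0.34), of which 2 of the lower in PC3 and 3 in DU145 passed the filter through BPH-1 alone. JUNB, an AP-1 subunit, was at 126 ± 12.5 FPKM in BPH-1, 44.0 ± 11.6 in DU145 and 84.6 ± 19.3 in PC3. ETV4 and ETV5, ETS factors of the PEA3 group, were lowest in BPH-1 (4.65 ± 0.814 and 2.97 ± 0.955 FPKM), with ETV4 highest in PC3 (33.5 ± 1.04) and ETV5 in DU145 (31.3 ± 2.71). CEBPB was at 38.7 ± 8.52 FPKM in BPH-1, 101 ± 27.1 in DU145 and 21.7 ± 2.09 in PC3. Between PC3 and DU145, the counts of higher and lower were 3 and 2 of 7 other MMPs, 3 and 1 of 4 other inhibitors, 3 and 5 of 14 activators, 5 and 1 of 8 ADAM and ADAMTS proteases, 7 and 5 of 19 substrates, and 5 and 7 of 19 inducers, where 20.0% of all genes tested were higher and 28.3% lower in PC3. Among these, 3 other MMPs, 1 other inhibitor, 2 activators, 1 ADAM or ADAMTS protease and 1 inducer passed the filter through 1 line alone.

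Markers of cell types that also make MMPs and TIMPs were read in all lines. Summed over the list, 9 fibroblast and stroma markers came to 2.89 to 5.0 FPKM in BPH-1, 1.39 to 3.42 in DU145 and 4.65 to 8.07 in PC3, and DCN was at 0 in BPH-1 and PC3. The 6 leukocyte markers summed to 15.02 to 20.05 FPKM in BPH-1, 5.13 to 15.4 in DU145 and 6.96 to 13.7 in PC3, and CD3E was at 0 in all libraries. The mean of LYZ in BPH-1 was 8.88 FPKM, beside 7.64 for MMP1 and 7.72 for MMP13. Of 5 leukocyte markers tested in PC3 against BPH-1, 4 were called lower (LYZ, PTPRC, CSF1R and CD14), but they passed the filter through BPH-1 alone. PTPRC had no read in PC3, and LYZ was at 0.0281 to 0.167 FPKM there. The other marker, CD68, was higher in PC3 (log2 fold change 1.06, limma adjusted p = 0.0024) at 10.9 ± 2.97 FPKM. In DU145, CSF1R and CD14 were called lower, through the same filter, and LYZ, PTPRC and CD68 were not called. The 4 endothelial markers summed to 0.249 to 0.634 FPKM in BPH-1, 0.12 to 0.386 in DU145 and 1.52 to 3.57 in PC3. In DU145 the leukocyte markers LYZ and PTPRC and the stromal DCN moved between pairs of replicates, and MMP2 and MMP3 were high in the libraries with DCN. Their part in the results for these genes was not tested.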

How the data were processed

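RNA of 12 libraries was sequenced, 4 each of BPH-1, DU145 and PC3. Per the labels, libraries were made with an NEB Ultra RNA kit, and the submitters' processing notes name CASAVA 1.8, HISAT2 2.1.0, edgeR and GRCh38, with no version of edgeR, no counting program, no filter and no use of strand given in the sources used here. The authors deposited 1 table of 58302 genes, whose values had the form of FPKM, although the header names no unit. All columns matched a library by name. Gene length was taken as the summed length of distinct GENCODE 29 exons, and on it 93.0% to 94.2% of low values (under 50 reads) of protein-coding genes were whole reads within 0.05, which gave the depth of each library (BPH-1 15262886 to 15606585, DU145 13416343 to 16309559, PC3 12950665 to 13871726 reads). Whether fragments or reads were counted is not stated. FPKM sums were 246960 ± 2986 in BPH-1, 293757 ± 5858 in DU145 and 298496 ± 5975 in PC3, and values were compared as deposited. For 263 genes no length was found, and they were left out of tests.

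limma 3.58.1 (R 4.3.3, intensity trend) was fitted to log2(FPKM + 1) of the 2 lines compared, over genes that reached 10 reads (scaled to median depth) in 4 or more libraries and 15 reads in total. P-values were Benjamini-Hochberg adjusted over all genes tested and called under 0.05. A fold change on this scale understates the change of low genes, so ratios of mean FPKM are given too. Exact permutation tests of the difference of means were two-sided, and with 4 against 4 cannot go below 0.0286. Count ratios have exact 95% intervals, and limits of detection are 3 reads over a line. Both cover counting error only. Count models (edgeR, DESeq2), planned only for counts, were not run.

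The members and gene lists were chosen with earlier results of these data known. All members were named, with the genes of each list that were called in all 3 comparisons (at most 4, by range of the line means) and the closest gene by pattern. MMP12, MMP3, the genes next to the cluster, single marker genes and listed genes that passed the filter through 1 line were named after their values were seen. So were the AP-1 genes other than JUNB, SLC12A5-AS1 and WTAPP1. Scripts were tested on simulated data with known depths and fold changes. Other software was Python 3.11.15, numpy 2.4.6, pandas 2.3.3 and matplotlib 3.10.9. Alternatives were the pseudocount, filters, scaling, a replicate block, 1 fit over all lines, voom, other call rules and leaving out each library. Added after the data were seen were a GC correction and pairs of replicates. Results of some of the genes examined by these rules are left out of the text.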

Additional observations from a re-analysis of the deposited data

Results flagged for a closer look

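Within groups of 4 libraries, 27 with a value above 0 were examined for a library whose gap to the next exceeds Dixon's 95% critical value, and 4 had one, where chance gives about 5% of groups. MMP14 in BPH-1 replicate 2 was at 148 FPKM, and the other 3 libraries were at 65.7 to 78.7. MMP7 in BPH-1 replicate 2 was at 1.71 FPKM (76 reads), with the others at 0.111 to 0.352. MMP1 in DU145 replicate 4 was at 0.378 FPKM (10 reads), with the others at 0.125 to 0.156. TIMP3 in DU145 replicate 1 was at 0.0134 FPKM, which was 1 read, with the others at 0. A value in 1 library with none in the others always exceeds the critical value, so this flag says nothing beyond the lone read.

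Between PC3 and DU145, 4 of the 5 members tested were called, where 48.2% of all genes tested were called and 46.5% had libraries that did not overlap. MMP14 and TIMP1 passed the filter in both lines, and their log2 fold changes of PC3 against DU145 were 2.26 and 1.58 (limma adjusted p = 2.58e-05 and 0.000601), with all 4 PC3 libraries above all 4 DU145 libraries. Over replicates 3 and 4 only, TIMP1 was not called (adjusted p = 0.0543). The log2 fold changes of MMP1 and MMP13 were 1.38 and 0.82, but both passed the filter through PC3 alone, which favours a difference, and their calls are no support. MMP13 was not called over replicates 3 and 4 only (adjusted p = 0.162) or in 1 fit over all 3 lines (adjusted p = 0.0545).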

How the results depend on the processing

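No member that was called changed direction under an alternative. The filter of 10 reads in every library left 5 members to be tested in PC3 and 3 in DU145 against BPH-1, and 3 between the PCa lines, of which 4, 2 and 2 were called, where 64.6%, 58.6% and 41.1% of all genes were. Over replicates 3 and 4 only, 2 members were called in PC3 against DU145, with MMP13 and TIMP1 lost (adjusted p = 0.162 and 0.0543). Leaving out each library gave 8 to 9 called members in PC3 against BPH-1, 8 to 9 in DU145 against BPH-1 and 4 to 4 in PC3 against DU145. Replicate numbers did not pair the libraries, since same-numbered libraries of DU145 and PC3 had correlations of -0.46, 0.51, 0.05 and -0.65. The replicate block gave 8, 8 and 4 called members and changed no call. Libraries of these lines still shared a pattern. DU145 replicates 1 and 3 correlated with PC3 replicate 4 at 0.61 and 0.70, and with PC3 replicate 1 at -0.46 and -0.53. For DU145 replicates 2 and 4 these values were -0.66 and -0.65, and 0.55 and 0.44. Comparing replicates 1 and 2 only or 3 and 4 only does not separate this pattern, and its part in the members was not tested. Rescaling to equal sums and upper-quartile scaling moved the mean of TIMP1 in BPH-1 from 21.2 to 24.1 and 18.2 FPKM. The median log2 fold change of all genes in PC3 against BPH-1 was -0.13 as deposited, -0.28 with equal sums and 0.10 with upper quartiles, and the share of calls that were higher was 40.2%, 30.3% and 55.2%. In DU145 against BPH-1 that share was 48.4%, 38.6% and 57.2%. Calls over all genes fell from 10689 to 6176 and 6315 in DU145 against BPH-1, and from 7821 to 5093 and 2742 in PC3 against DU145, with replicates 1 and 2 or 3 and 4 only.

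With 4 libraries a line, levels under 0.00514 to 0.0311 FPKM, depending on the gene, rest on fewer than 3 reads, and no fold is given for MMP7 or TIMP3 between PC3 and DU145. Genes that overlap on the other strand cannot be told apart without strand. The count models, planned only for deposited counts, and TMM factors were not run, although voom was fitted to reads recovered from the FPKM.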
